A study of Mus musculus with 4 samples.

Results

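The exportins are nuclear export receptors of the importin-beta superfamily, and 7 of their genes were followed here through a knockdown of Xpo5 in mouse embryonic fibroblasts. The 7 genes are Xpo1, Xpo4, Xpo5, Xpo6, Xpo7, Xpot and Cse1l, and the array carried 17 probes for them among 41174 probes in all. Members were taken by the gene name printed with each non-control probe, and every probe of a gene was read on its own. The cells were primary embryonic fibroblasts of wild type C57BL/6 mice. Both groups went through the same schedule and differed in the siRNA they received, which was either a negative control or directed at Exportin-5, the product of Xpo5. After 12 h with 60 nM siRNA came 48 h in 0.2% serum, in which fibroblasts stop cycling, then 24 h in 20% serum together with another transfection. Each group held 2 samples, numbered replicate 1 and replicate 2, from the 2 experiments that the series text describes as independent, and each sample had its own 1-colour array. Because the labels do not say that different embryos were used, a p value here covers the spread of these samples and no more, and 2 arrays against 2 can give no exact permutation p below 0.333. The siRNA sequences are not given in the sources used here, and whether 1 or several were used is not stated, so that the group stands for this reagent rather than for a genetic loss of Xpo5. The question taken here is whether the other exporters were higher, lower or level when Xpo5 was knocked down.

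Exportins bind their cargo in the nucleus together with Ran in its GTP-bound form, pass through the nuclear pore, and release the cargo in the cytoplasm once Ran hydrolyses its GTP. Family members differ in what they carry. Exportin-5 takes out hairpin precursors of microRNAs, and Xpot encodes exportin-t, which takes out mature tRNAs. Xpo1, also called CRM1, carries proteins with leucine-rich export signals, Xpo4 carries Eif5a and Smad3, Xpo6 carries actin bound to profilin, and Xpo7 carries a mixed set of proteins. Cse1l returns importin-alpha to the cytoplasm, so that protein import can go on.

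The probes are 60-base DNA strands, and 6 of them are printed to show what the values below were read with. They are the brightest and the spliced probe of Xpo5, which differed in size, both probes of Cse1l, which differed in sign, and 1 probe each of Xpo4 and Xpo6, whose groups overlapped. Capitals mark the longest run that a probe shares with a printed probe of another exporter.
Xpo5 A_52_P201232: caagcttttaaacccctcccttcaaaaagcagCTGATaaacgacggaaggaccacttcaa
Xpo5 A_52_P209328: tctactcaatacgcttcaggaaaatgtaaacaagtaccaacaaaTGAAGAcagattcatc
Cse1l A_51_P248705: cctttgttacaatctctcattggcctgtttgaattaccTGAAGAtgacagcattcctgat
Cse1l A_52_P470518: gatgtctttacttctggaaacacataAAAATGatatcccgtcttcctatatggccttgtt
Xpo4 A_52_P489079: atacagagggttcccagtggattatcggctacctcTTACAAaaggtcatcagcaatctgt
Xpo6 A_51_P116447: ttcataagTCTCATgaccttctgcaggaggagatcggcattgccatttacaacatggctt
These shared runs were 5 or 6 bases long. Over all 136 pairs of the 17 probes, the longest shared run was 9 bases, between a probe of Xpo1 and a probe of Xpo5. Matches of a probe to the rest of another exporter's transcript were not examined.

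On each array 62.4% to 65.0% of spots stood well above background, 0 were saturated, and the arrays correlated at 0.983 to 0.993 over probes. With so few arrays, precision is limited throughout. Levels below are log2 processed signal minus the array's 75th percentile, and a difference is Xpo5 siRNA minus control siRNA on that log2 scale with its SE. All 12 fibroblast markers were well above background on all 4 arrays. All 12 macrophage markers were too, and their summed signal was 28422 and 22178 with control siRNA against 39868 and 32885 with Xpo5 siRNA, with a median difference of 0.64. That difference was 1.09 within slide 1 and 0.17 within slide 2, and 0.50 in replicate 1 and 0.72 in replicate 2. All 12 macrophage markers were above 0. The epithelial markers Epcam, Cdh1 and Cldn4, the endothelial markers Pecam1, Cdh5 and Tie1, the neural markers Sox2 and Gfap and the muscle markers Myod1, Myog and Myh3 were not above background on both arrays of either group. Other members of those lists were. The tested endothelial markers had a median difference of 0.63 over 3 genes (Kdr 1.19, Tek 0.63 and Emcn -0.34), with a summed signal of 436 and 516 with control siRNA against 539 and 514. The neural markers had a median of 0.72 over 4 genes (Nefl 1.14, S100b 0.79, Map2 0.65 and Tubb3 -0.38), with a summed signal of 4745 and 4767 against 3939 and 3891. The muscle markers had a median of 0.42 over 3 genes, with Tnnt3 at 0.74 and a summed signal of 20233 and 41981 against 30759 and 43764. The epithelial markers had a median of -0.31 over 4 genes, with Krt5 at -0.92 and a summed signal of 3229 and 2857 against 3111 and 2517. In limma 0 of these markers passed with 1 probe per gene, against 0.0216% of all genes. The part of RNA of such other cell types in the values below was not tested, and in bulk RNA fewer cells of a type and less RNA per cell cannot be told apart.

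Xpo5 was the exporter with a large difference. Its brightest probe, A_52_P201232, is placed by the files on mm9 chromosome 17, from 46378755 to 46378814. All positions here are on that mouse build. Its signal was 1313 and 1402 units on the control arrays and 137 and 135 units with Xpo5 siRNA, in the order of the replicates. On the log2 scale the levels were 1.31 and 1.26 against -1.95 and -1.93. The groups did not overlap, and both knockdown arrays lay far below both controls. The difference was -3.23 ± 0.14, with a 95% confidence interval of -3.59 to -2.87, which is 10.7% of the control signal (8.32% to 13.7%). Over all 25629 probes tested, limma gave an unadjusted p of 5.10e-06 and an adjusted p of 0.0653, which misses the threshold of 0.05. No probe on the array passed it, 0% of those tested, while 10.9% had an unadjusted p under 0.05. With 1 probe per gene, where 0.0216% of 13919 genes passed, the same probe reached an adjusted p of 0.0106. A fit with slide as a block gave it an adjusted p of 0.298, although the difference was -3.21 within slide 1 and -3.25 within slide 2.

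Of the other 3 probes of Xpo5, A_51_P152191 was lower by nearly as much as the brightest, A_52_P209328 by less, and A_52_P638867 was not tested. A_51_P152191, at chromosome 17, 46379784 to 46379843, 1029 bases further along the genome, read 792 and 1217 units with control siRNA and 110 and 109 units with Xpo5 siRNA. Its groups did not overlap, and the difference of -3.08 ± 0.21 left 11.8% of the control signal (limma adjusted p = 0.178, or 0.301 when slide was a block). A_52_P209328 starts at base 641 of its transcript and spans 5992 bases of the genome, from 46345161 to 46351152, so that its sequence bridges a spliced intron. It read 22.3 and 43.3 units with control siRNA and 8.14 and 16.4 units with Xpo5 siRNA. The groups did not overlap, but the gap between replicates was wide in both. The difference was -1.34 ± 0.45 (limma adjusted p = 0.425), which is 39.5% of the control signal with an interval of 17.2% to 90.5%. It was -2.27 within slide 1 and -0.41 within slide 2, and -1.46 in replicate 1 and -1.22 in replicate 2. With normexp background correction without spots of uneven local background it was -0.29. That setting used an offset of 50 units, which exceeds these signals and by itself draws a difference towards 0. On each array the level of the brightest probe exceeded that of this dim one by 5.88 and 5.02 for the controls and by 4.08 and 3.04 with Xpo5 siRNA. The measured signals thus changed unequally. On replicate 1 of Xpo5 siRNA the dim probe was near the dimmest signal well above background, 7.09 units. A fall as large as that of the brightest probe would have left it below that level, so the size of its fall is uncertain. The fourth probe, A_52_P638867, lies at 46345504 to 46345563, inside the genomic span that the spliced probe skips. It stood clear of background on 1 array of 4 and did not enter the test.

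**Figure D1:**
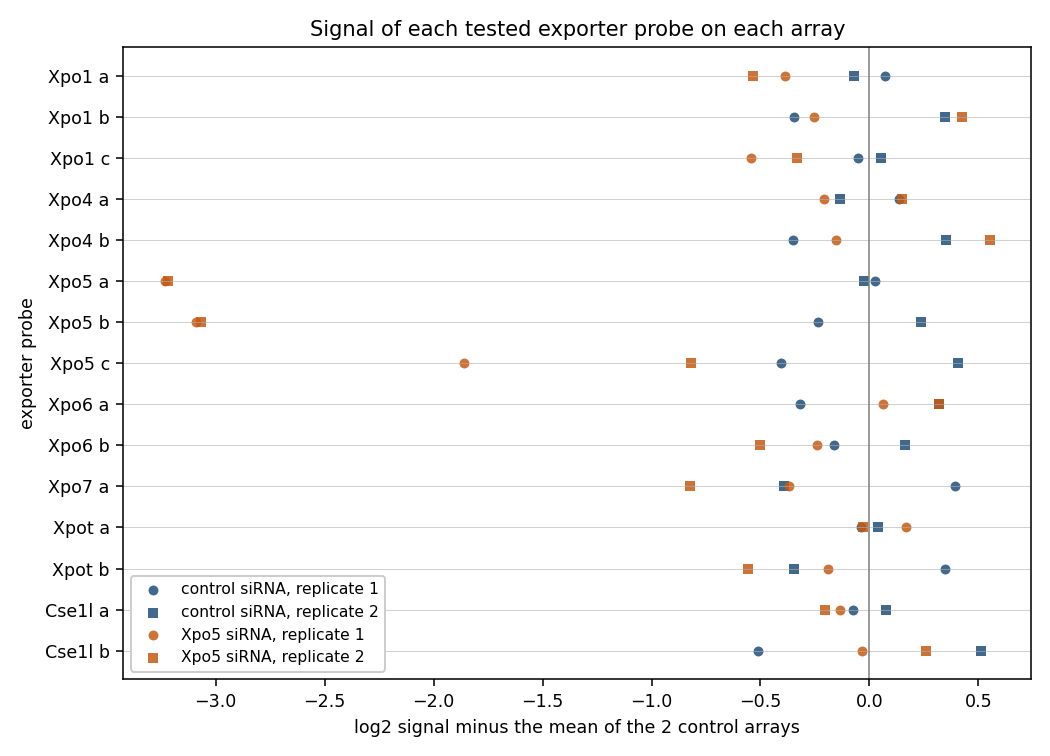
Signal of the 15 tested exporter probes on each of the 4 arrays, as log2 signal minus the mean of the 2 control arrays of that probe (horizontal axis), 1 point per array, with letters ordering the probes of a gene from bright to dim. The Xpo5 siRNA arrays lie about 3 log2 units left of the controls for the 2 bright Xpo5 probes, whereas both groups overlap or lie close together for most other exporter probes.

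Among the other 6 exporters, 0 of 12 tested probes passed in limma, in either direction, against 0% of all probes. Adjusted p values went from 0.409 to 0.967. Differences were below 0 for 7 probes and above 0 for 5, with a median of -0.10 and a range of -0.60 to 0.20. Over all 25629 probes the median was 0.01, and the central range from the 5th to the 95th percentile was -0.48 to 0.64. The groups did not overlap for 4 of the 12, all 4 lower with Xpo5 siRNA and 0 higher, where 43.2% of all probes did not overlap, 21.7% lower and 21.5% higher. An unadjusted p under 0.05 was found for 2 of the 12, both of Xpo1 and both lower, where 4.59% of all probes were lower at that p. With the replicate number as a block 0.0156% of all probes passed, and again 0 of the 12. These counts rest on 12 probes of 6 genes, and probes of a gene share their target. The highest upper bound of the 12 intervals was 1.13, or 2.19-fold, so that the interval of that probe does not exclude a higher level of that size. The lowest bound was -1.45.

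Xpot, the second RNA exporter, had 2 well-measured probes 2541 bases apart on the same transcript. The brighter, A_51_P292566 (chromosome 10, 121024527 to 121024586), read 3971 and 4634 units with control siRNA and 4584 and 3907 units with Xpo5 siRNA. The groups overlapped, and the difference was 0.07 ± 0.15, with an interval of 79.4% to 138% of the control signal (limma adjusted p = 0.886). A_51_P323369 (121027068 to 121027127) read 1795 and 1227 units against 1240 and 937 units. Its groups overlapped as well, with a difference of -0.37 ± 0.29 (limma adjusted p = 0.682). It was 0.16 within slide 1 and -0.91 within slide 2, and -0.54 in replicate 1 and -0.21 in replicate 2. Without replicate 2 of control siRNA that difference was -0.72, whereas dropping replicate 1 of control siRNA left -0.03.

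Xpo1 gave the smallest unadjusted p of the 6. Its brightest probe, A_51_P336635 (chromosome 11, 23196643 to 23196702), read 3099 and 3115 units with control siRNA and 2258 and 1993 units with Xpo5 siRNA. Both knockdown arrays lay below both controls. The difference was -0.46 ± 0.15, with an interval of -0.86 to -0.07, which is 72.5% of the control signal (55.1% to 95.5%). The limma p was 0.0306 before and 0.409 after adjustment over all probes, and 0.249 after adjustment with 1 probe per gene. The difference was -0.32 within slide 1 and -0.61 within slide 2, and slide as a block raised the adjusted p to 0.992. A much dimmer probe 618 bases downstream, A_52_P633543 (23197261 to 23197320), read 17.6 and 21.0 units against 12.6 and 14.2 units. Its groups did not overlap, and its difference of -0.44 ± 0.16 was close to that of the bright probe (limma adjusted p = 0.438). With normexp without spots of uneven local background the values were -0.082 for the dim probe and -0.52 for the bright one. The offset of 50 units exceeds the dim signals and draws their difference towards 0, so these 2 values cannot be compared. The level of the bright probe over the dim one on each array was 7.46, 7.21, 7.49 and 7.13, so that the ratio differed by -0.02 between the siRNAs. The third probe, A_52_P89259 (23187268 to 23187327), targets a separate cDNA record. It read 15.9 and 28.5 units with control siRNA and 17.0 and 26.6 units with Xpo5 siRNA, where the replicates differed by about the same amount in both groups. Its difference was 0.09 ± 0.35 (limma adjusted p = 0.941).

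For the other protein exporters every interval included 0, which does not establish that they were unchanged. For Xpo7, A_51_P235594 (chromosome 14, 71064714 to 71064773) read 3047 and 1962 units with control siRNA and 1804 and 1287 units with Xpo5 siRNA. The groups overlapped, since the second control lay between the knockdown arrays. The difference of -0.60 ± 0.33 was the largest in size among the 12 probes, with an interval of -1.45 to 0.26 (limma adjusted p = 0.578). It was 0.02 within slide 1 and -1.21 within slide 2, and leaving out a control array gave -0.20 (without replicate 1) or -0.99 (without replicate 2). Another probe named for Xpo7, A_52_P508944, lies on the opposite strand 4988 bases away. Its signal was 1.81 and 2.40 units against 1.57 and 2.03 units, below background on all 4 arrays.

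Xpo4 had 2 tested probes, and the groups of both overlapped. A_52_P247366 (chromosome 14, 58200230 to 58200289) read 155 and 142 units with control siRNA and 122 and 153 units with Xpo5 siRNA. The difference was -0.03 ± 0.20 (limma adjusted p = 0.967), or 98.0% of the control signal with an interval of 67.9% to 141%. A_52_P489079 (58215888 to 58215947), printed above, read 54.1 and 97.2 units against 62.1 and 99.0 units. Its difference of 0.20 ± 0.35 (limma adjusted p = 0.856) was smaller than the gap of 0.70 between the control replicates. The interval ran from 60.3% to 219% of the control signal.

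Xpo6 had a bright and a dim probe 59622 bases apart. A_51_P116447 (chromosome 7, 133248331 to 133248390), also printed above, read 384 and 659 units with control siRNA and 500 and 585 units with Xpo5 siRNA. After scaling, 1 knockdown array lay between the controls and the other level with the higher control. The difference was 0.19 ± 0.26 (limma adjusted p = 0.814), with an interval of 70.7% to 184% of the control signal. A_52_P1091624 (133307953 to 133308012) had log2 levels of -5.52 and -5.19 against -5.60 and -5.85, and was well above background on both control arrays and 1 knockdown array. Its groups did not overlap, with a difference of -0.37 ± 0.19 (limma adjusted p = 0.561). On replicate 2 of Xpo5 siRNA, where the probe was not well above background, its value is not a measured level. The difference was -0.023 with normexp without spots of uneven local background, whose offset of 50 units again exceeds the signals of the probe.

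For Cse1l, the exporter of importin-alpha, A_51_P248705 (chromosome 2, 166769881 to 166769940) read 2515 and 3091 units with control siRNA and 2420 and 2256 units with Xpo5 siRNA. Both knockdown arrays lay below both controls by a small margin. The difference was -0.17 ± 0.15, or 89.0% of the control signal with an interval of 68.2% to 116% (limma adjusted p = 0.713). A_52_P470518 (166765435 to 166765494), 601 bases upstream in the transcript, read 182 and 411 units against 255 and 305 units. The control replicates lay on either side of both knockdown arrays, and the difference was 0.11 ± 0.38 (limma adjusted p = 0.925).

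**Figure D2:**
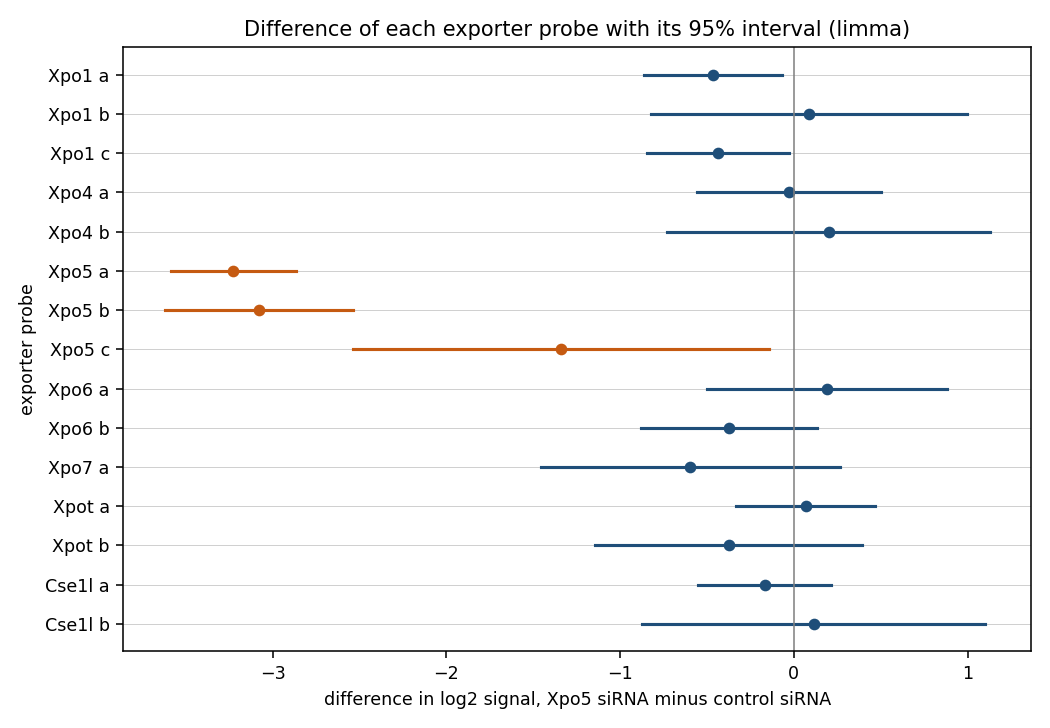
Difference of each of the 15 tested exporter probes, Xpo5 siRNA minus control siRNA in log2 signal, as a point with its 95% confidence interval from limma as a line, Xpo5 in orange and letters ordering the probes of a gene from bright to dim. The 2 bright Xpo5 probes lie at -3.23 and -3.08, while the 12 probes of the other exporters lie between -0.60 and 0.20.

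The slides bear on these values because a slide carried 1 control and 1 knockdown array, of unlike replicate numbers. A disagreement between the 2 slides thus cannot be told apart from gaps between the replicates. Several exporter probes differed between replicates by more than between siRNAs. The replicates of Cse1l A_52_P470518 were 1.03 apart with control siRNA, those of Xpo7 were 0.78 apart, and those of the third Xpo1 probe were 0.69 apart. Over all probes the median gap was 0.24 with control siRNA and 0.19 with Xpo5 siRNA. Comparing arrays of the same replicate number, 9 of the 12 probes kept 1 sign in both comparisons, as did 69.6% of all probes tested. The brightest Xpo1 probe read -0.46 in replicate 1 and -0.47 in replicate 2, and Xpo7 read -0.76 and -0.43, whereas the brighter Xpo4 probe read -0.35 and 0.29.

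The rest of the transport machinery was read from lists of named genes, with 1 probe per gene. In limma 0 members of any of these lists passed, against 0.0216% of all genes. The importin-beta list holds other genes of the same superfamily, many of them import receptors. Of its 13 genes, 10 were below and 3 above 0, with a median of -0.16, where 48.8% of all genes were below 0 and their median was 0.01. An unadjusted p under 0.05 was found for 4, against 14.7% of all genes. The import receptors Ranbp6 and Ipo8 read 0.50 ± 0.14 and 0.51 ± 0.14 (limma adjusted p = 0.223 and 0.234). The other probes of Ipo8 were also above 0, at 0.35 and 0.37. Tnpo1, which imports RNA-binding proteins, read -0.38 ± 0.13, and Kpnb1, the main importin-beta, -0.33 ± 0.13 (limma adjusted p = 0.290 and 0.338). The median of the list was -0.00 within slide 1 and -0.27 within slide 2, and -0.22 in replicate 1 and -0.11 in replicate 2. It was -0.044 with 8 of 13 genes below 0 without replicate 1 of control siRNA. It was -0.24 without replicate 2 of control siRNA.

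The importin-alpha adapters, which are the cargo of Cse1l on its way out of the nucleus, had 4 of 5 tested genes below 0 and a median of -0.12, which became -0.0071 with 3 of 5 below 0 without replicate 2 of Xpo5 siRNA. Kpna6 read 0.16, Kpna2 -0.15, Kpna1 -0.12 and Kpna3 -0.20. The Ran cycle genes, which charge Ran with GTP and discharge it, were below 0 for 6 of 8, with a median of -0.19. Rangap1, which triggers GTP hydrolysis by Ran, read -0.51 ± 0.17, and its other probe 0.21. Rcc1, which loads Ran with GTP on chromatin, read -0.37 ± 0.14 (limma adjusted p = 0.285 and 0.337). The binding protein Ranbp1 read -0.28, and Rangrf -0.16. Groups did not overlap for 4 of these 8, all lower and 0 higher, against 22.9% lower and 24.7% higher of all genes.

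Known cargoes and adapters of exporters were below 0 for 11 of 14, with a median of -0.10, or -0.036 with the mean of a gene's probes. Pfn1, the profilin carried with actin by Xpo6, read -0.47 ± 0.24, and Eef1a1, a translation factor that leaves the nucleus with tRNA, read 0.28 ± 0.13 (limma adjusted p = 0.446 and 0.392). Phax, the adapter for export of small nuclear RNA by Xpo1, read -0.23, and the cap-binding gene Ncbp1 also read -0.23, with its other probe at 0.27. Genes of bulk mRNA export, which does not use Ran-dependent exportins, were below 0 for 11 of 15, with a median of -0.20, or -0.13 with 8 of 15 below 0 without replicate 2 of control siRNA. Of these, Nxt1 read -0.40 ± 0.14, the helicase gene Ddx39b -0.48 ± 0.20 with its other probe at 0.02, Thoc7 -0.30 and Pcid2 -0.23. MicroRNA processing genes, which act before and after Exportin-5, were below 0 for 7 of 9, with a median of -0.08. Leaving out control replicate 2 gave -0.28, leaving out control replicate 1 gave -0.050 and leaving out knockdown replicate 1 gave -0.21. The count was 9 of 9 with median scaling, where the median of all probes was -0.09. It was 5 of 9 with the mean of a gene's probes. Ago2, which holds mature microRNAs, read -0.44 ± 0.17 and Dgcr8, the nuclear partner of Drosha, -0.39 ± 0.18 (limma adjusted p = 0.347 and 0.392). Drosha itself read -0.26, with other probes at -0.68 and -0.17, and Ago3 read -0.20.

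Cell cycle and replication genes had a lower median than the transport lists. All 12 were below 0, with a median of -0.43 and a range of -0.72 to -0.20. The median was -0.34 within slide 1 and -0.57 within slide 2, and -0.46 in replicate 1 and -0.48 in replicate 2. Mcm3 and Mcm5, subunits of the replicative helicase, read -0.72 ± 0.17 and -0.66 ± 0.16 (limma adjusted p = 0.202 and 0.206). With the replicate number as a block, where 4.37% of all genes passed, Mcm5 did at 0.0487 and 0 members of the transport and microRNA lists did. Pcna, the replication clamp, read -0.60 and Mcm7 -0.47. Whether the lower transport medians follow the share of dividing cells was not tested.

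**Figure D3:**
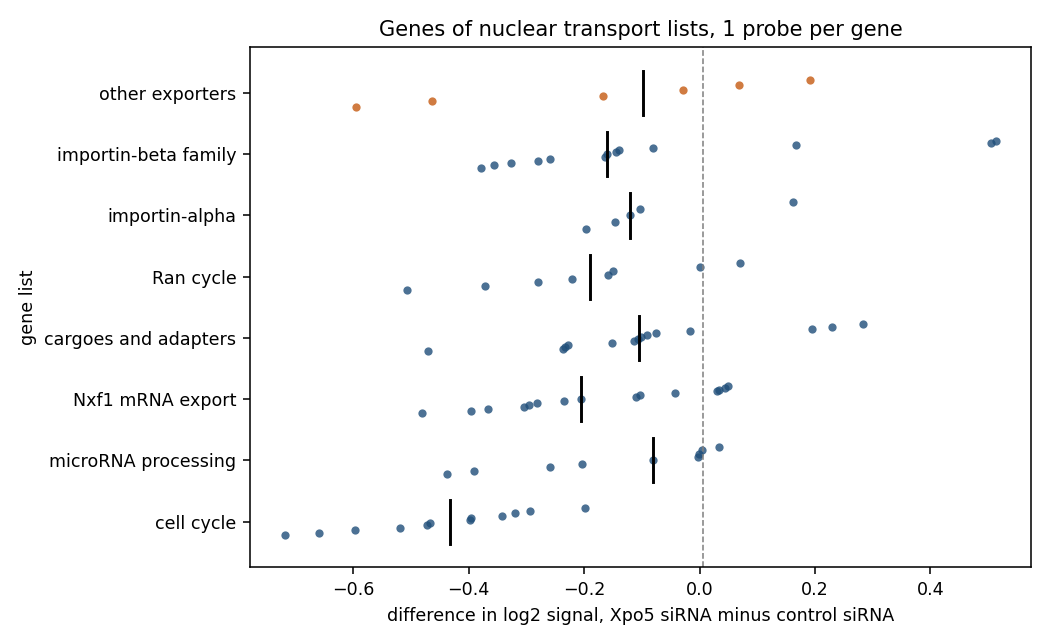
Differences of the genes in each list, Xpo5 siRNA minus control siRNA in log2 signal, 1 point per gene, with a black bar at the list median and a dashed line at the median of all genes, 0.01. The medians of the 6 transport and microRNA lists lie between -0.20 and -0.08, that of the other exporters at -0.10 and that of the cell cycle list at -0.43.

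Genes with the most similar pattern were taken by the smallest root mean square distance between log2 levels, each centred on its own mean over the 4 arrays, among 13918 genes. For Xpo5 that rule gave B230110C06Rik, Spag11a and 4930429F11Rik. All 3 were well above background on both control arrays and on neither Xpo5 siRNA array. They passed the filter only through the control group, so that a lower value with Xpo5 siRNA was fixed in advance. These genes were at least 1.53-fold, 2.51-fold and 3.17-fold lower, and their distances and order are not measured values. B230110C06Rik, at -5.64 on control replicate 1, was near the dimmest level well above background there, -5.88. No gene lay within 0.1 of Xpo5. The other exporters had crowded neighbourhoods, with 686 genes within 0.1 of Xpo1, 241 of Xpo4, 270 of Xpo6, 42 of Xpo7, 1672 of Xpot and 1730 of Cse1l. Their nearest genes were Jph1 for Xpo1, Ccny for Xpo4, Chd2 for Xpo6, Plau for Xpo7, Nrxn2 for Xpot and Pdlim1 for Cse1l, at distances of 0.0053 to 0.028. With 4 arrays, such a likeness describes these samples.

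Some directions turned with the processing. Normexp background correction of all spots reversed 5 exporter probes, among them the spliced Xpo5 probe, at 1.21, and the brighter Xpot probe, at -1.24. The limma adjusted p values of these 5 were 0.594 to 0.608, so that no opposite direction is established. With that setting 14 of 25629 probes had an unadjusted limma p under 0.05, against 2784 in the main setting. Median scaling reversed the brighter Xpot probe, at -0.038, and the third Xpo1 probe, at -0.020. The brightest probes of Xpo1, Xpo5, Xpo7 and Cse1l kept their direction under every alternative run, although normexp of all spots put them at -1.43, -2.08, -1.22 and -1.22.

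**Figure D4:**
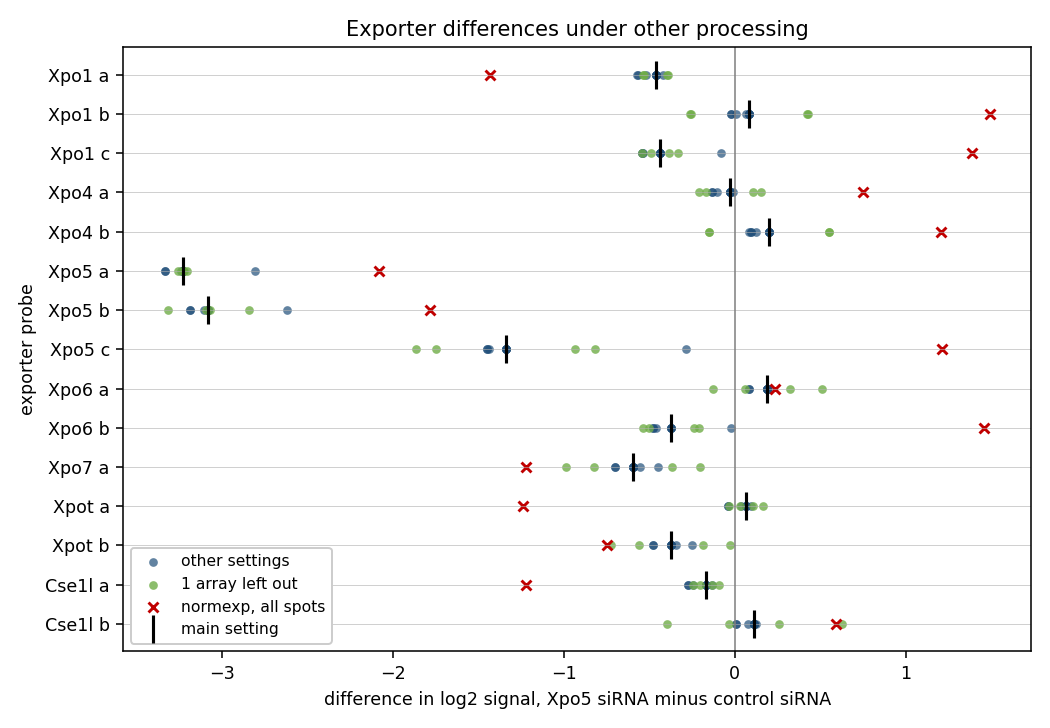
Differences of the 15 tested exporter probes in log2 signal under other processing, with a black bar for the main setting, green points for 1 array left out, blue points for other settings and red crosses for normexp of all spots. The brightest Xpo5 probe stays between -3.33 and -2.08, and normexp of all spots, which moved the median of all probes to 0.41, reversed the direction of 5 exporter probes.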

How the data were processed

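Per the labels' protocols, total RNA of the 4 samples was labelled with Cy3, and each was read on an Agilent array. Spot intensity in the deposited scanner files was background-subtracted and, per the file headers, extracted with Agilent Feature Extraction, version 10.5.1.1. A deposited table for the series gives log2 values, equal to the log2 processed signal plus a constant for each array that sets its median to 5.33. From the scanner files, log2 processed signal minus the 75th percentile of the array over non-control probes was taken, outlier spots (77 to 134 of 43379 per array) were left out, and spots of a probe were averaged. Probes had to be well above background on both arrays in 1 group or more, and 25629 of 41174 were. Groups were compared with lmFit and eBayes of limma 3.58.1 under R 4.3.3, two-sided, with Benjamini-Hochberg adjustment over all kept probes and a threshold of 0.05. The fit was also run on simulated data with independent noise of the same size for every probe, which cannot show how it behaves on these arrays. For lists, each of 13919 genes had its brightest kept probe. Gene names come from the arrays and the RefSeq gene table, and positions are those of the files. A fold of a gene at background in 1 group is a lower bound. It compares the mean of the brighter group with, per array of the other, the higher of its own signal and the dimmest signal well above background.

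All exporter probes are named, with up to 4 genes per list by smallest unadjusted p, the 3 nearest patterns for Xpo5 and 1 for each other exporter. The members and lists were chosen with earlier results of these data known. The alternatives were other background corrections, scalings, filters, probe summaries and blocks, an intensity trend, the deposited table, and each array left out in turn.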

Additional observations from a re-analysis of the deposited data

Results flagged for a closer look

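The fourth Xpo5 probe, A_52_P638867, was outside every test because it was not well above background on both arrays of a group. On replicate 2 of Xpo5 siRNA its signal was 16.5 units and well above background. On the other arrays it was 2.98 and 3.55 units with control siRNA and 2.89 units with replicate 1 of Xpo5 siRNA. The higher value is thus 1 array, with no replicate, and it runs opposite to the other 3 Xpo5 probes.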

How the results depend on the processing

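The count of probes of the other 6 exporters that passed in limma was 0 under all 16 alternatives. The count over all probes was 0 in the main setting, with 2784 at an unadjusted p under 0.05. It was 1 with normexp without spots of uneven local background, 1 with an intensity trend, 10 with median scaling and 10 in the deposited table. It was 3 with 1 probe per gene and 1 with the mean of a gene's probes. The brightest Xpo5 probe passed at -2.81 (adjusted p = 0.00623) with that normexp, -3.33 (0.0259) with median scaling, -3.23 (0.0157) with the trend, -3.33 (0.0256) in the deposited table and -3.23 (0.0106) with 1 probe per gene. It did not pass with normexp on all spots (-2.08, 0.594), with dim probes kept (-3.23, 0.533), with the mean of its probes (-2.55, 0.147), with quantile normalization (-3.24, 0.0617), with probes above background on all arrays (-3.23, 0.0740) or with slide as a block (-3.23, 0.298). Leaving out 1 array gave -3.25 to -3.20, at adjusted p values of 0.0753 to 0.473. Same-numbered arrays deviated together (r = 0.515 over 25629 probes, which are not independent), a hint from the data and not the design. With the replicate number as a block, 4 probes passed, among them the brightest Xpo5 probe at -3.23 (adjusted p = 0.0414). No other exporter probe passed with the block. With 1 probe per gene, 608 genes passed with the block against 3 without it. They included 4 macrophage markers, 3 neural markers, Kdr, Tnnt3 and Mcm5, and 0 of the other 6 exporters.

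Normexp on all spots moved the median of all probes to 0.41 and reversed Xpo1 A_52_P633543 (1.39), Xpo4 A_52_P247366 (0.75), Xpo5 A_52_P209328 (1.21), Xpo6 A_52_P1091624 (1.46) and Xpot A_51_P292566 (-1.24). Median scaling and the deposited table reversed Xpo1 A_52_P89259 (-0.020 and -0.021) and Xpot A_51_P292566 (-0.038 in both). Both settings differ from the main one by a constant per array, so that they moved every exporter difference by about the same amount. The reversed probes stood at 0.085 and 0.068 in the main setting. The brightest Xpo5 probe went from -3.23 to -3.33 with median scaling. The cause of the reversals with normexp was not tested. Leaving out 1 array gave -0.26 to 0.43 for Xpo1 A_52_P89259, -0.21 to 0.15 for Xpo4 A_52_P247366, -0.15 to 0.55 for Xpo4 A_52_P489079, -0.13 to 0.51 for Xpo6 A_51_P116447, -0.031 to 0.17 for Xpot A_51_P292566 and -0.40 to 0.63 for Cse1l A_52_P470518. The median over the 64 genes of the transport and microRNA lists was -0.15 in the main setting. It was -0.83 with normexp on all spots and -0.088 with normexp without spots of uneven local background. With median scaling and in the deposited table it was -0.25, where the median of all probes was -0.09, against 0.01 in the main setting. With 1 array left out it was -0.20 to -0.12. The fibroblast median, 0.05, was -0.05 with median scaling, where that of all probes was -0.09. Xpo6 A_52_P1091624 has no value where every array had to be above background.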
